A study of Mus musculus with 4 samples.

Results

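The genes described here are 43 genes of the DNA replication machinery, from the proteins that license origins to the enzymes that supply deoxynucleotides. They were taken from 37042 genes and unnamed transcripts on a 1-colour Agilent mouse array, through probes designed on a RefSeq transcript of each gene. The rule that names them uses no measured value. Of the 43 genes, 42 were well above background on all 4 arrays, a state that 20482 of all genes and transcripts reached. The exception was Ccne2 (cyclin E2), which was not well above background on any array and is left out of the counts and medians.

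The arrays came from primary chondrocytes, the cells of cartilage, of 6-day-old mice in a C57BL/6J background. Control cells were Rela fl/fl (so named in the plots), with both alleles of Rela floxed and no Cre, and the other cells were from Prrx1-Cre; Rela fl/fl littermates (cKO). Prrx1-Cre is driven by a promoter that is active in undifferentiated limb mesenchyme. Each genotype was cultured for 3 days without TNF or with TNF at 10 ng per mL, and there was 1 array for each of the 4 conditions. Whether cells of several animals were pooled is not given in the sources used here.

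Before a cell can copy its DNA, the origin recognition complex, Cdc6 and Cdt1 load a ring of the Mcm2 to Mcm7 proteins onto each origin. In S phase, Cdc45 and the GINS complex turn this ring into the active helicase, primase and DNA polymerases follow, and the sliding clamp PCNA, placed by its loader RFC, holds the polymerases on the template. Genes of this machinery are classic targets of E2F transcription factors, which the retinoblastoma family of proteins keeps silent in resting cells. In cartilage, division of chondrocytes lengthens the growing bone before the cells enlarge and stop dividing.

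Levels are given as the log2 signal relative to the 75th percentile of the same array, and a difference of 1 is a 2-fold difference. With 1 array per condition there was no replicate, so no difference below was tested. The only error at hand was technical. Probes spotted 10 times on each array gave a pooled spread (1 SD) of 0.138 for a log2 difference between 2 arrays. By level, it was 0.272 for probes under -2, 0.115 for probes from -2 to 2 and 0.079 for probes of 2 and over. This spread leaves out differences between cultures, between RNA samples and between labelling reactions. A difference past 2 pooled spreads (0.276) is said below to be past the technical spread, and the counts use this limit for all genes. It is wide for bright probes and narrow for dim ones.

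The labels were checked on the same arrays. Rela itself had levels of 4.82 and 5.12 in control cells without and with TNF, and 5.09 and 5.33 in the cells labelled cKO, where it was thus no lower. Whether its probe lies in the deleted part of the gene is not given in the sources used here, so these values check nothing about the deletion, and the arrays are called "labelled cKO". The female transcript Xist was well above background only on the control arrays, with levels of -0.48 without TNF and -0.41 with TNF. The Y-linked gene Eif2s3y was well above background on all arrays. Its levels without and with TNF were 0.83 and 0.88 on the control arrays and 2.64 and 2.71 on the labelled cKO arrays. It was thus higher on the labelled cKO arrays by 1.81 without TNF and 1.83 with TNF. Control arrays gave both signals, and whether they held cells of both sexes was not tested. The sex of the source mice therefore cannot be told apart from genotype. All 12 chondrocyte markers were well above background on all arrays. Their median difference between labelled cKO and Rela fl/fl was -0.56 without TNF and -0.38 with TNF. Of 8 leukocyte markers with a probe, 6 were well above background on all arrays and Ptprc on none, and their summed signal lay between 35.9 and 44.6 times the 75th percentile. Itgam (levels of 4.99 to 5.33) made up most of that sum. Other markers differed between genotypes without TNF in both directions, such as Adgre1 by 2.87 (bright patch on the labelled cKO array) and Lyz2 by -2.11 (bright patch on the control array). Of 14 NF-κB and TNF response genes, all 14 were higher with TNF in control cells, with a median log2 difference of 1.43. In labelled cKO cells 13 of the 14 could be measured, all 13 were higher, and the median was 0.57.

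The promoters of the replication genes were searched for elements known from cell cycle genes. RefSeq (GRCm38.p6) held a promoter window of 300 bases, from 250 before to 50 after the start, for 35 of the 43 genes. An E2F motif was searched as the words TTTCCCGC, TTTCGCGC, TTTGCCGC and TTTGGCGC on both strands. It was found in 14 of the 35 genes (40.0%), in 2.61% of 27025 genes with a window and in 1 of 28 mitosis and spindle genes. The array files name another build (mm9), so these coordinates belong to the RefSeq table and not to the arrays. The windows below show the motif (in capitals) with up to 11 bases on each side, 5′ to 3′ along the gene's own strand. They are those of 3 licensing genes (the fourth, Orc6, held no such word), 4 helicase genes, Uhrf1 and Rfc3.

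Orc1 (chr4:108579416-108579445, + strand): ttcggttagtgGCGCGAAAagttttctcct
Cdc6 (chr11:98908002-98908031, + strand): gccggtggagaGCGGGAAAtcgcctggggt
Cdt1 (chr8:122568036-122568064, + strand): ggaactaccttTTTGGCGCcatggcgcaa
Mcm3 (chr1:20820275-20820304, - strand): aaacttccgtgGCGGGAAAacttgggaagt
Mcm5 (chr8:75109345-75109374, + strand): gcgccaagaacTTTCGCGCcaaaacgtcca
Mcm6 (chr1:128359797-128359826, - strand): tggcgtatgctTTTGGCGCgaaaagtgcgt
Mcm7 (chr5:138171849-138171878, - strand): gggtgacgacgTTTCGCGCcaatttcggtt
Uhrf1 (chr17:56304117-56304146, + strand): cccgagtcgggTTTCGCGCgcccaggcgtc
Rfc3 (chr5:151651200-151651229, - strand): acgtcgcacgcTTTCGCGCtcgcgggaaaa

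Of these 9 windows, several lay close to the start of transcription. The word began at position -27 in Orc1, at -10 in Rfc3 and at 17 in Mcm7, counted from 1 at the first transcribed base, and farther upstream in Cdc6 (-138), Mcm5 (-153) and Uhrf1 (-185). In Mcm5 and Mcm6 the word on 1 strand overlapped a word on the other, and the window of Rfc3 holds a second word (gcgggaaa, beginning at position 1); in these 3 windows only the first word is in capitals. Mcm6 held 3 words, the most of any replication gene in this search, and its whole window (chr1:128359656-128359955, - strand) is shown with the E2F words in capitals, the first pair of them overlapping.

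Mcm6: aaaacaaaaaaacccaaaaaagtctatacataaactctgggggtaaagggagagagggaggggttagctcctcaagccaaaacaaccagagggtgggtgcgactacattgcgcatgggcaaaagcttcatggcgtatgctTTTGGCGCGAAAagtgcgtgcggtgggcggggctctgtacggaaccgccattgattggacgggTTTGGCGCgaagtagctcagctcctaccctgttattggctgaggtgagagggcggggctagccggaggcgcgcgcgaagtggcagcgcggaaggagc

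The word search is strict, and a window without a match says only that these letters are not in it. Other known elements of cell cycle promoters were counted in the same windows. The CCAAT box, bound by the factor NF-Y, was in 22 of 35 replication genes (62.9%), in 21 of 28 mitosis genes and in 41.1% of all genes. The letters TTTGAA, the core of the element called CHR that is known from genes of late cell cycle phases, were in 5 of 35 replication genes (14.3%), in 71.4% of mitosis genes and in 20.2% of all genes. E2F words were thus more common in the replication list and CHR letters in the mitosis list, as a description of these promoters.

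**Figure D1:**
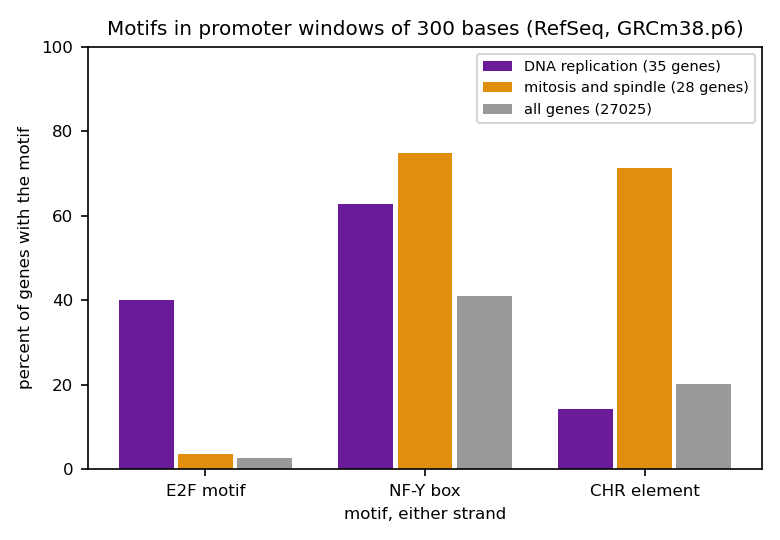
Percent of genes (vertical axis) with each motif (horizontal axis) in the promoter window of 300 bases, for replication genes, mitosis and spindle genes, and all genes with a window. The E2F motif was in 40.0%, 3.57% and 2.61% of them, and the CHR element in 14.3%, 71.4% and 20.2%.

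Across the 4 arrays most of the replication genes were highest on the same array. Their level was highest in labelled cKO cells with TNF for 36 of 42 genes, against 41.3% of all genes. Without scaling of the arrays it was so for 35 genes, against 24.6% of all genes, and in the authors' table for 34, against 22.0%. For 31 of the 42 it was lowest in control cells with TNF, against 23.2% of all genes. The median level over the 42 genes was 1.84 in control cells and 1.82 in the same cells with TNF, 1.95 in labelled cKO cells and 2.14 in those with TNF. No gene was past a 2-fold difference in any comparison. Of all genes measured, 6.66% were past that limit with TNF in control cells, 5.47% with TNF in labelled cKO cells, 7.9% between genotypes without TNF and 4.37% between genotypes with TNF. Differences of the replication genes were thus all under 2-fold.

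**Figure D2:**
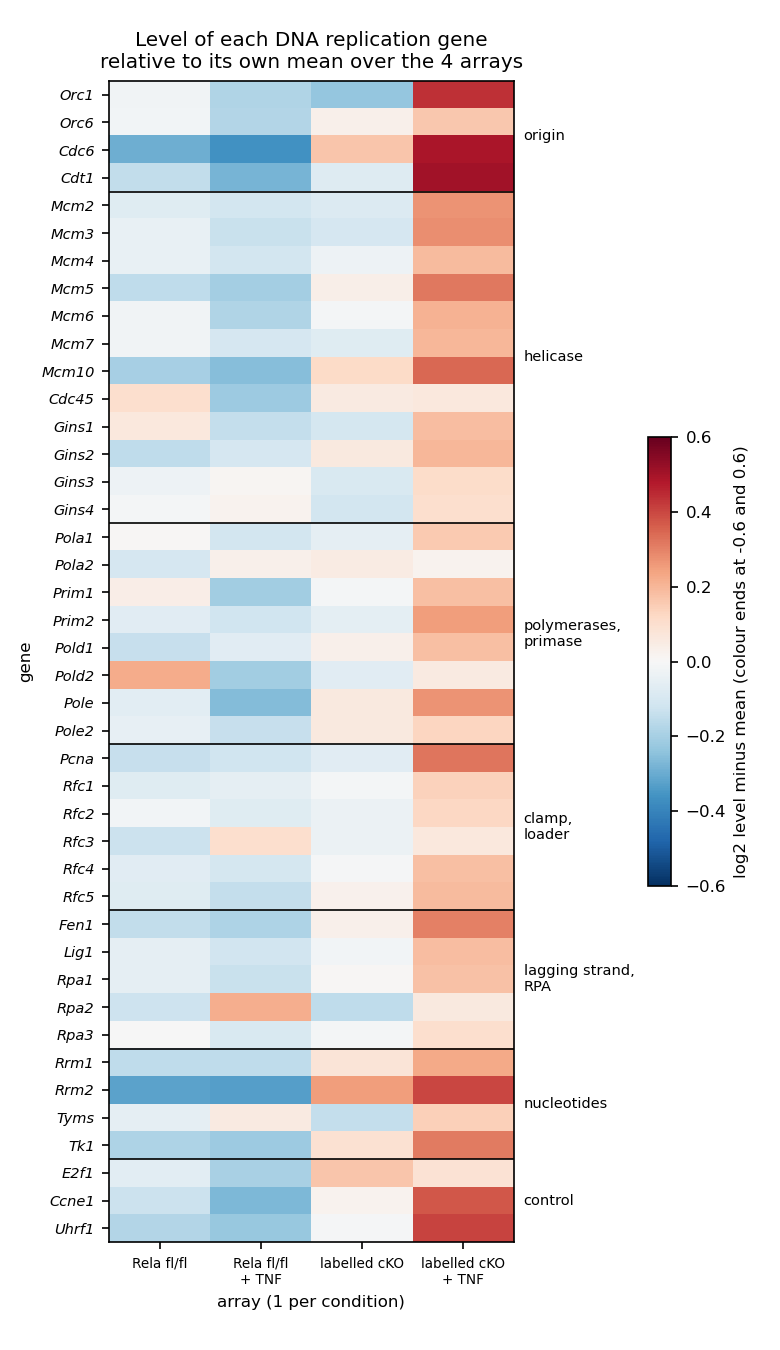
Level of each of the 42 measured replication genes on the 4 arrays (columns) as its log2 level minus its own mean over the arrays (colour), with genes ordered by role. The column of labelled cKO cells with TNF is the highest for 36 genes, and the column of control cells with TNF is the lowest for 31.

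The comparison of arrays with and without TNF asked which genes respond to the cytokine in each genotype. In control cells, 32 of 42 replication genes were below 0 with TNF and 10 above, with a median log2 difference of -0.06, ranging from -0.43 to 0.34. Among all genes 52.9% were above 0 and the median was 0.01. Only Rpa2 was higher by more than the technical spread, where 9.34% of all genes were, and Pold2 and Cdc45 were lower by more than it, where 9.48% were. No replication gene was higher by more than it with normexp (6.06% of all genes) or with spots in patches left out (8.58%). Cdc45 was at -0.21 with normexp, within the spread. In labelled cKO cells, 40 of 42 replication genes were above 0 with TNF, with a median of 0.21 and a range of -0.08 to 0.66, against 63.7% and a median of 0.07 for the 20482 genes well above background on all arrays. Past the technical spread were 11 of 42 genes, all higher, against 10.6% of all genes. This count depended on scaling. It was 6 of 42 after quantile normalization, where 15.1% of all genes were, 4 without scaling (4.78%) and 3 in the authors' table (4.55%).

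Other genes on these arrays were also higher with TNF in labelled cKO cells. The 9 housekeeping genes, used here as a reference list, were all above 0 there, with a median of 0.17, and 5587 genes in the middle range of the replication genes' levels had a median of 0.08. Over the 24903 genes that could be measured in this comparison the median was 0.06, which put the replication genes 0.15 above it. Without scaling of the arrays the medians were 0.10 and -0.04, and the distance between them was again 0.15. With quantile normalization it was 0.09.

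The change with TNF differed between genotypes by a median of 0.29 over the 42 genes (labelled cKO minus Rela fl/fl), against 0.05 for all genes. Without scaling the 2 medians were 0.17 and -0.06. The difference was above 0 for 39 of 42 genes, against 58.8% of all genes, and past 2 technical spreads of such a double difference (0.39) for 9 of them. That share of all genes was 8.61%. The count was 3 without scaling, where 5.43% of all genes were, 5 in the authors' table, where 6.22% were, and 10 after quantile normalization, where 10.7% were. The 9 genes were Orc1, Cdt1, Gins1, Mcm3, Prim1, Pole, Pold2, Ccne1 and Uhrf1, with Cdc6 and Mcm2 (0.39 each) just under the limit. Second probes of Ccne1 and Uhrf1 gave -0.05 and -2.21. Across the 42 genes, the TNF differences in the 2 genotypes had a Pearson correlation of -0.06, as a description of genes that share their arrays and are not independent.

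**Figure D3:**
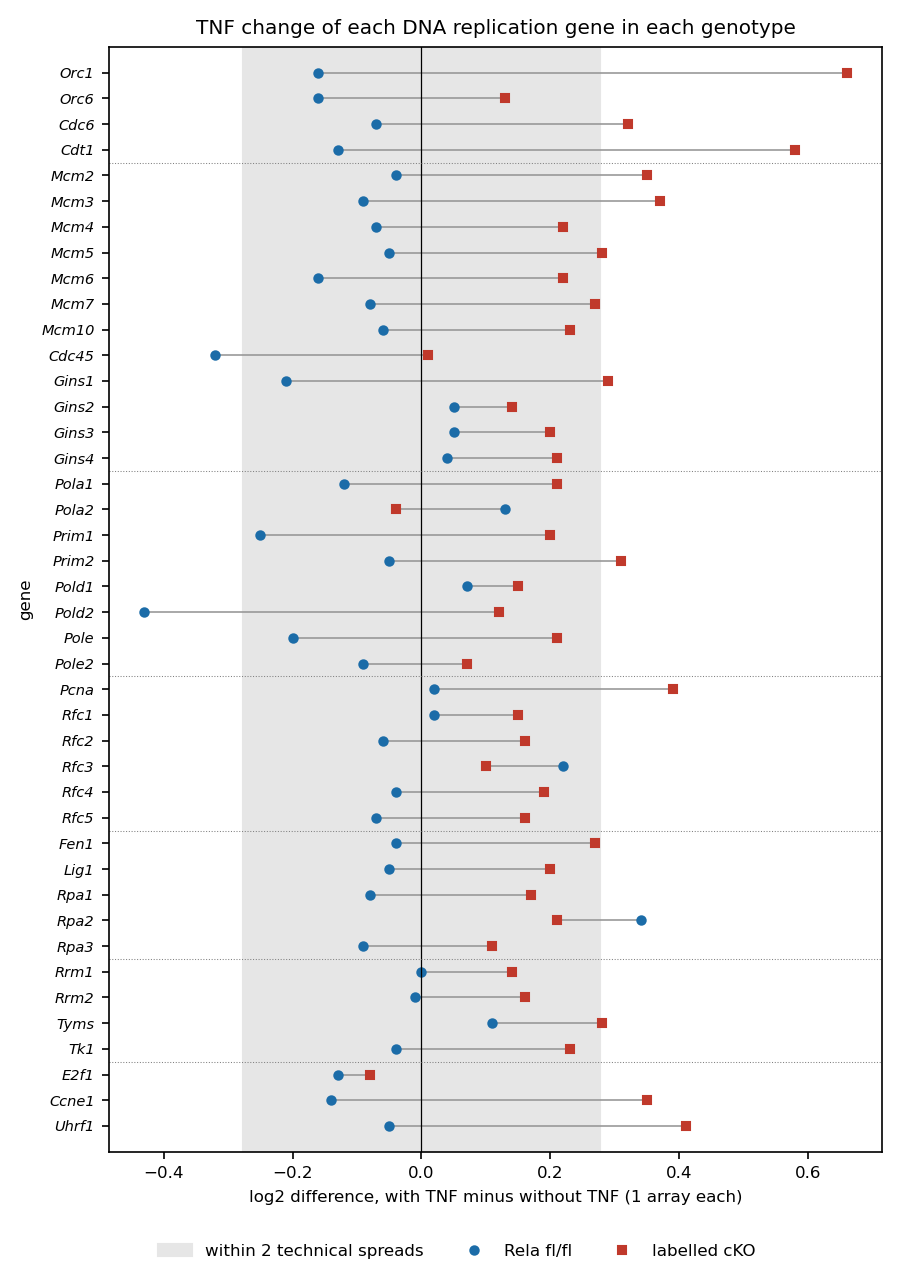
Log2 difference with TNF minus without TNF (horizontal axis) for each of 42 replication genes in control cells (circles) and labelled cKO cells (squares), by role. Grey marks differences within 2 technical spreads; the square lies to the right of the circle for 39 genes.

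The 4 origin licensing genes had the largest difference between genotypes in the TNF change of all roles, with a median of 0.55. Orc1, the largest subunit of the origin recognition complex, had levels of -3.44 in control cells, -3.60 with TNF, -3.65 in labelled cKO cells and -2.98 with TNF. The last array was the highest, and the other 3 lay close together. With TNF, Orc1 differed by -0.16 in control cells and by 0.66 in labelled cKO cells, the only replication gene past 1.5-fold with TNF, where 1.49% of all genes were. Its signal is dim, so the wider limit of 0.544 applies to it, and normexp background correction lowered the second value to 0.29. The difference between these 2 changes, 0.82, was 0.44 with normexp. Without scaling and in the authors' table the TNF difference in labelled cKO cells was 0.56 and 0.55, so that no gene was past 1.5-fold there.

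Cdt1, which brings the Mcm ring to the origin, gave a brighter signal and was also highest in labelled cKO cells with TNF. Its levels were 2.34 and 2.21 in control cells without and with TNF, and 2.41 and 2.99 in labelled cKO cells. It was 0.58 higher with TNF in labelled cKO cells, just under the 1.5-fold limit of 0.585, and differed by -0.13 with TNF in control cells. Cdc6, which acts with Cdt1 in loading, had levels of -2.46, -2.53, -2.0 and -1.68 in the same order of arrays, with both labelled cKO arrays above both control arrays. A second, dimmer probe of Cdc6 gave TNF differences of -0.10 and 0.73, but had the labelled cKO array without TNF as its lowest (-3.04), with its spot in a patch of unusually bright neighbouring spots (called a bright patch below) on the control array without TNF. Orc6 was the least changed of the 4, at 0.13 with TNF in labelled cKO cells.

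The 12 helicase genes were all above 0 with TNF in labelled cKO cells, with a median of 0.23 and a narrow range of 0.01 to 0.37. The subunits of the Mcm2 to Mcm7 ring lay close together there. Their TNF differences lay between 0.22 (Mcm4 and Mcm6) and 0.37 (Mcm3) in labelled cKO cells, and between -0.16 (Mcm6) and -0.04 (Mcm2) in control cells. Between genotypes with TNF the 6 subunits differed by 0.29 (Mcm4) to 0.51 (Mcm5), each past the technical spread. Without TNF they differed by -0.06 to 0.19, each within it. The spot of Mcm7 lay in a bright patch on the control array without TNF. Mcm10, which helps to start the helicase, had levels of 0.22, 0.16, 0.53 and 0.76, both labelled cKO arrays being above both control arrays. Its spot lay in a bright patch on the control array with TNF and on the labelled cKO array without it.

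The other helicase subunits were less uniform. Cdc45 had levels of -2.06, -2.38, -2.11 and -2.10, so that the control array with TNF stood lower than the other 3, by less than the limit of 0.544 for dim probes. Gins1 had levels of 0.07, -0.14, -0.10 and 0.19, with its spot in a bright patch on the first of these arrays, and Gins2, Gins3 and Gins4, of the same complex, differed by 0.04 to 0.05 with TNF in control cells and by 0.14 to 0.21 in labelled cKO cells. Within the GINS complex the 4 subunits thus differed in sign with TNF in control cells, and had the same sign in labelled cKO cells.

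Polymerase and primase genes gave mixed values, with a median of 0.17 over 8 genes with TNF in labelled cKO cells. Prim1, the catalytic subunit of primase, had levels of 1.90, 1.65, 1.85 and 2.04 (bright patch on the first array), and Prim2, its partner subunit, was the highest of this group with TNF in labelled cKO cells, at 0.31. Pola2, a subunit of polymerase alpha, was nearly level at -3.30, -3.17, -3.15 and -3.18, and had the lowest TNF difference of the group in labelled cKO cells, at -0.04, with its spot in a bright patch on the labelled cKO array without TNF. Pold2, a subunit of polymerase delta, had levels of 0.11, -0.32, -0.18 and -0.06, the control array without TNF being the highest. It was the replication gene with the lowest TNF difference in control cells, at -0.43, while Pold1, the catalytic subunit, stood at 0.07. Pola1, Pole and Pole2, subunits of polymerases alpha and epsilon, all had values below 0 with TNF in control cells (-0.12, -0.20 and -0.09). In labelled cKO cells they were above 0 (0.21, 0.21 and 0.07). The spot of Pole2 lay in a bright patch on the control array with TNF.

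The sliding clamp Pcna had levels of 4.17 and 4.19 in control cells without and with TNF and of 4.24 and 4.63 in labelled cKO cells. A single array, labelled cKO with TNF, stood apart, by 0.39 from its partner without TNF. The 5 subunits of the clamp loader, Rfc1 to Rfc5, differed by only 0.10 (Rfc3) to 0.19 (Rfc4) with TNF in labelled cKO cells, all within the technical spread. In control cells Rfc1, Rfc2, Rfc4 and Rfc5 lay between -0.07 and 0.02 with TNF. The spot of Rfc2 lay in a bright patch on the control array without TNF. Rfc3 was not highest in labelled cKO cells with TNF, with levels of -0.07, 0.16, 0.02 and 0.12. Its highest array was that of control cells with TNF. Its promoter window holds an E2F word, and a link between word and level was not tested.

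Genes of the lagging strand and of single-strand binding, except Rpa2, were highest in labelled cKO cells with TNF. Fen1, the nuclease that trims RNA primers, had the largest difference of this group with TNF in labelled cKO cells, at 0.27, and Rpa3 the smallest, at 0.11. Lig1, the ligase that joins the fragments, stood at 0.20 there and at -0.05 in control cells. Its spot lay in a bright patch on both arrays without TNF. Rpa2, a subunit of the single-strand binding protein RPA, had levels of 0.00, 0.34, -0.03 and 0.18. It was highest in control cells with TNF, where its spot lay in a bright patch, and its partners Rpa1 and Rpa3 differed by -0.08 and -0.09 with TNF in those cells.

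The 4 genes of nucleotide supply had a median genotype difference of 0.25 without TNF and 0.45 with TNF, against 0.01 and 0.06 for all genes. Rrm2, the regulated subunit of ribonucleotide reductase, had levels of 3.77 and 3.76 in control cells without and with TNF and of 4.34 and 4.49 in labelled cKO cells. It differed between genotypes by 0.56 without TNF and by 0.73 with TNF. Rrm1, its partner, and Tk1 (thymidine kinase 1) had smaller differences, of 0.23 and 0.27 without TNF and of 0.38 and 0.53 with TNF. Tyms (thymidylate synthase) differed by -0.09 and 0.09 between genotypes. It had the largest TNF difference of the 4 in labelled cKO cells, at 0.28. Rrm1 had the smallest, at 0.14.

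Of the genes of S phase entry, E2f1 itself was not higher with TNF in labelled cKO cells. Its levels were 1.76, 1.63, 1.99 and 1.91, so that it differed by -0.13 with TNF in control cells and by -0.08 in labelled cKO cells. It was lowest in control cells with TNF, and between genotypes with TNF it differed by 0.29, past the technical spread. Ccne1 (cyclin E1) had levels of 2.74 and 2.60 in control cells and of 2.89 and 3.24 in labelled cKO cells, and Uhrf1, a cofactor of maintenance DNA methylation, had levels of 1.79, 1.74, 1.96 and 2.37. Both were highest in labelled cKO cells with TNF, by 0.35 and 0.41 over the array without TNF.

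Second probes of these genes did not give the same picture. The second probe of Ccne1 differed by 0.03 and -0.02 with TNF in the 2 genotypes. The second probe of Uhrf1 was not well above background on 1 of the 4 arrays and was 2.39 higher with TNF in control cells, where its spot lay in a bright patch. The values of Ccne1 and Uhrf1 therefore rest on 1 spot per array of the brighter probe.

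The comparison of genotypes set labelled cKO against control cells. Without TNF the replication genes differed little between labelled cKO and control cells, with a median of 0.05 against 0.01 for all genes. Of 42 genes 27 were above 0, against 51.6% of all genes, and 3 were higher by more than the technical spread (Cdc6, Mcm10 and Rrm2), where 13.9% of all genes were. Cdc6, at 0.47, was within the limit of 0.544 for dim probes and at 0.24 with normexp, and its second probe, whose spot lay in a bright patch on the control array without TNF, gave -0.15. The spot of Mcm10 lay in a bright patch on the labelled cKO array without TNF. Pold2 was lower, by 0.29 on the log2 scale. With TNF the median was 0.32 against 0.06 for all genes, 39 of 42 genes were above 0, against 61.1% of all genes, and 29 were higher by more than the technical spread, where 14.4% of all genes were. Without scaling that count was 18, where 9.96% of all genes were. Past 1.5-fold were 7 genes, Orc1, Cdc6, Cdt1, Mcm10, Rrm2, Ccne1 and Uhrf1, where 3.07% of all genes were. Cdt1 and Rrm2 were past it under all 8 alternatives. Only Cdc6, Cdt1 and Rrm2 were past it without scaling and in the authors' table, where 2.2% and 2.23% of all genes were. After quantile normalization 5 were, without Mcm10 and Uhrf1, where 3.56% of all genes were. With normexp 4 were, without Orc1, Cdc6 and Mcm10 (0.24, 0.51 and 0.50), where 1.38% of all genes were. The second probe of Ccne1 gave 0.21, and the mean of the probes of Uhrf1 gave -0.78. The comparisons with TNF share arrays with each other, so this last difference holds both the higher values in labelled cKO cells and the slightly lower values in control cells.

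By role, the median genotype difference with TNF was 0.70 for the 4 licensing genes, 0.62 for the 3 genes of S phase entry, 0.45 for nucleotide supply and 0.32 for the helicase. It was 0.30 for the lagging strand group, 0.27 for polymerases and primase and 0.24 for clamp and loader. The lowest genes were Rpa2 at -0.16, Rfc3 at -0.04 and Pola2 at -0.01, and the highest was Cdc6 at 0.86, which its second probe put at 0.68.

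The chondrocyte markers differed between genotypes in the opposite direction, but their TNF changes differed between genotypes in the same direction as those of the replication genes. With TNF, 11 of 12 were below 0 in control cells (median -0.22) and 8 were above 0 in labelled cKO cells (median 0.06). The median difference between these changes was 0.23, with 11 of 12 above 0. Of the 12, 11 were below 0 in both genotype comparisons, Col2a1 being the exception, and their summed signal was 1808 and 1711 times the 75th percentile in control cells without and with TNF and 1404 and 1442 times in labelled cKO cells. The median genotype difference without and with TNF was -0.29 and -0.25 for 8 fibroblast markers. For osteoblast markers, of which 2 of 5 were well above background on all arrays, it was 0.70 and 0.97 over 3 measured genes. These were Bglap2 (0.03 and 0.50), Sp7 (0.70 and 1.81) and Ibsp (1.13 and 0.97). Sp7 is dim and was not well above background on the control array with TNF, so its 1.81 rests on the floor. The median was 0.16 and 0.10 for endothelial and 0.03 and 0.13 for erythroid markers, with 2 well above background on all arrays in each list. The part of these cell types in the result was not tested. In a culture measured in bulk, a larger share of cells in S phase and more replication transcripts per cell cannot be told apart.

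Mitosis and spindle genes, which act after replication in the same cells, were set beside the replication genes in the same comparisons. Of 32 such genes, 31 were well above background on all 4 arrays. With TNF their median difference was -0.03 in control cells and -0.03 in labelled cKO cells, against -0.06 and 0.21 for the replication genes. Nuf2 and Kif20a, spindle proteins, had the lowest TNF differences in control cells (-0.65 and -0.34), and Bub1b and Kif23 the highest (0.19 and 0.17). The spot of Nuf2 lay in a bright patch on the control array without TNF, and those of Bub1b and Kif23 on the one with TNF. Between genotypes their median was 0.32 without TNF and 0.35 with TNF, against 0.05 and 0.32 for the replication genes. Without TNF 22 of 32 mitosis genes and 3 of 42 replication genes were higher by more than the technical spread, where 13.9% of all genes were. With TNF the counts were 22 of 31 and 29 of 42, against 14.4% of all genes.

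The mitosis genes were thus mostly higher on both labelled cKO arrays, and the replication genes mainly on the one with TNF. The difference between the lists was not tested, since there was 1 array per condition. The replication genes' own genotype differences without and with TNF had a Pearson correlation of 0.48 and a Spearman correlation of 0.41 across the 42 genes. Rrm2, Cdc6 and Mcm10 had the highest values without TNF (0.56, 0.47 and 0.30), and Pold2 and Orc1 the lowest (-0.29 and -0.20).

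**Figure D4:**
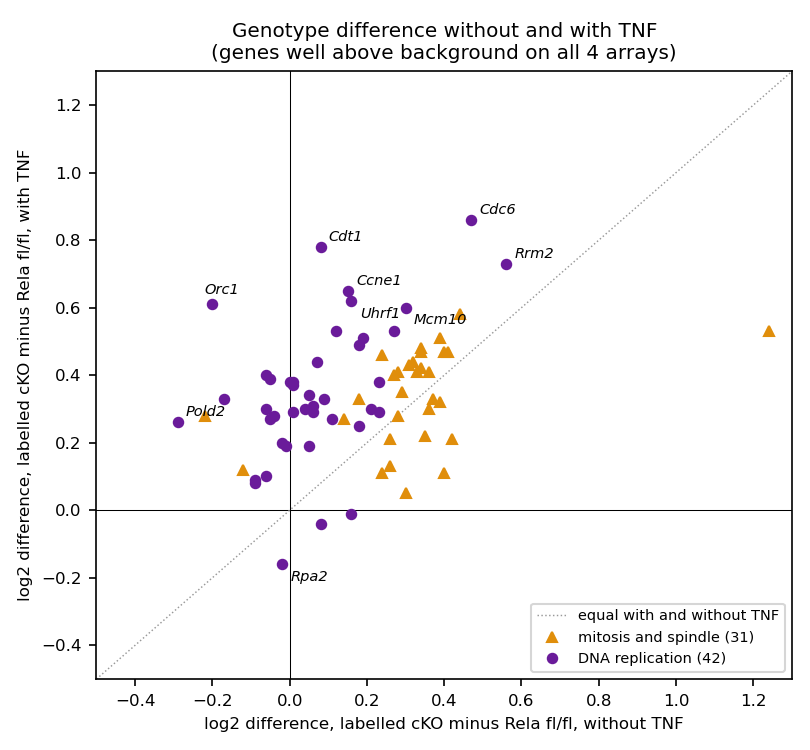
Log2 difference between labelled cKO and control cells without TNF (horizontal axis) and with TNF (vertical axis), for 42 replication genes (circles) and 31 mitosis and spindle genes (triangles), each 1 gene. The circles lie around 0 on the horizontal axis (median 0.05) and above 0 on the vertical axis (median 0.32), while all triangles but Nuf2 (-0.22) and Pttg1 (-0.12) lie above 0 on the horizontal axis (median 0.33) and all lie above 0 on the vertical axis (median 0.35). The spots of Nuf2 and Pttg1 lay in a bright patch on the control array without TNF.

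Other lists of the cell cycle were described in the same comparisons. For 40 further replication genes, of which 39 were measured, the medians were -0.02 with TNF in control cells and 0.18 in labelled cKO cells, and 0.03 and 0.23 between genotypes without and with TNF. Clspn and Mcm8 had the lowest TNF differences in control cells, at -1.88 and -0.51, and Mcm9 had the highest, at 0.35. The spot of Clspn lay in a bright patch on the control array without TNF, and Mcm9 was not well above background there. For 22 regulators of the E2F and retinoblastoma families, the medians were 0.02 and 0.13 with TNF and 0.09 and 0.16 between genotypes, with Cdk2 and E2f3 lowest (-0.31 and -0.20) and Rbl2 and Tfdp1 highest (0.23 and 0.17) with TNF in control cells. The spots of Cdk2, E2f3 and Tfdp1 lay in a bright patch on the control array without TNF, and that of Rbl2 on the one with TNF. For 12 D-type cyclins, their kinases and kinase inhibitors the medians were 0.01 and 0.14 with TNF and 0.09 and 0.12 between genotypes, with Cdkn1c and Ccnd2 lowest (-0.49 and -0.18) and Cdk6 and Cdkn2b highest (0.60 and 0.31). The spots of Cdkn1c and Ccnd2 lay in a bright patch on the control array without TNF, where Cdk6 was not well above background, so that its value rests on the floor.

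**Figure D5:**
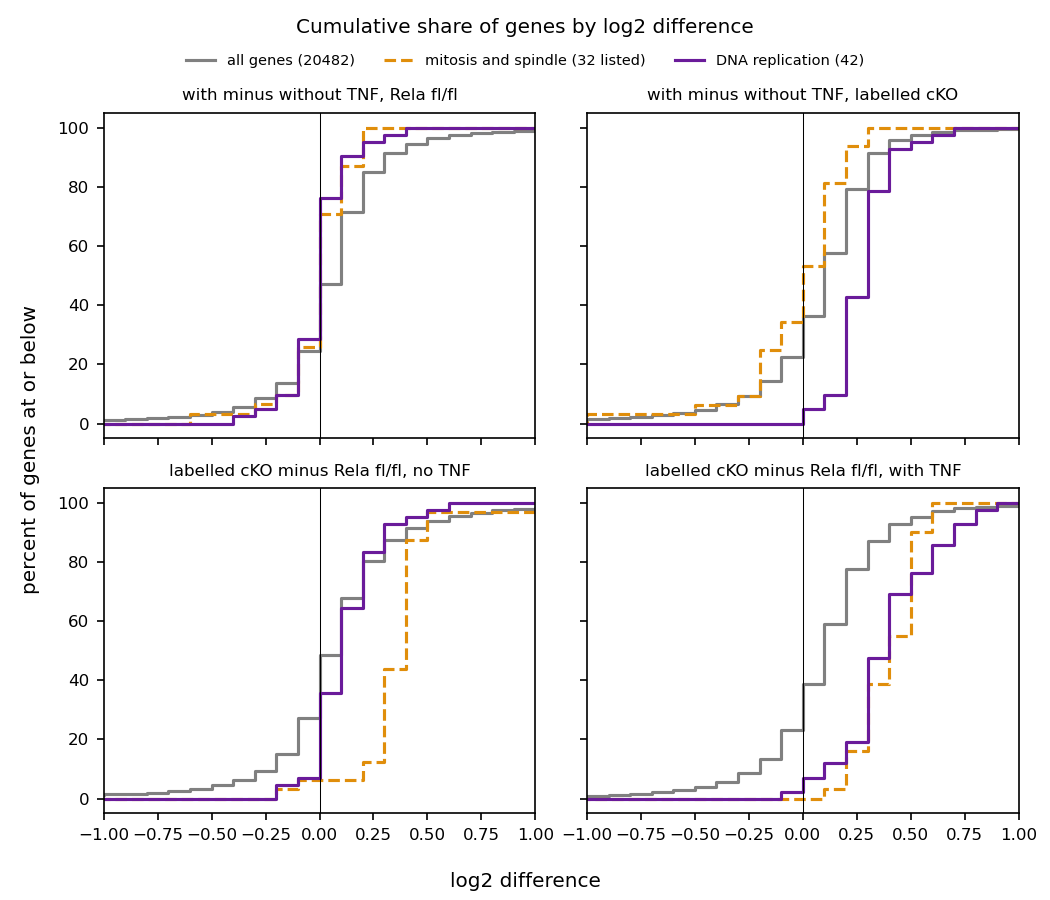
Percent of genes at or below each log2 difference (vertical axis) against that difference (horizontal axis, steps of 0.1) in the 4 comparisons, for replication genes, mitosis and spindle genes, and all genes measured well above background on the 4 arrays. The line of the replication genes lies to the right of that of all genes with TNF in labelled cKO cells (medians 0.21 and 0.07) and between genotypes with TNF (0.32 and 0.06).

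Replication genes with and without an E2F word in the promoter window were set side by side. With TNF in labelled cKO cells the median was 0.25 for 14 genes with a word and 0.17 for 21 genes without. Between genotypes with TNF it was 0.34 and 0.33, so the word did not separate the genes there. The ranges overlapped in both comparisons, at 0.07 to 0.66 and -0.08 to 0.39 in the first.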

How the data were processed

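The authors deposited the scanner output of 4 1-colour arrays (SurePrint G3 Mouse Gene Expression), made with Agilent Feature Extraction 10.10.1.1, as processed intensity per spot, already background-subtracted, with flags for outliers and for brightness over background. A second deposited table held intensity values scaled by 1 factor per array (1.77 to 1.83 times the processed intensity), whose basis is not given in the sources used here. All arrays were on 1 slide in 1 scan, with 75th percentiles of 589.7 to 634.2 and 50.9 to 58.1% of probes well above background; the number of arrays limits the precision.

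From the deposited intensity, control spots and outlier flags were left out, spots of a probe were averaged, and the array's 75th percentile was subtracted on the log2 scale. The probe with the highest mean stood for a gene. Symbols came from RefSeq (GRCm38.p6) by accession, which matched 20435 of 20809 NM accessions. A difference needed the brighter array well above background, and a dimmer one was set to at least the lowest signal so flagged on its array. All 43 genes were read by 1 spot per array. A spot was taken as lying in a bright patch where at least 3 neighbours, within 5 rows and 2 columns on each side, were 2-fold brighter than on each other array. This held on at least 1 array for 11 of the 42 measured genes. Scripts (Python 3.11.15, pandas 2.3.3, R 4.3.3, limma 3.58.1 for normalization only) were tested on simulated data.

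The genes and lists were chosen with earlier results of these data known. Values on all 4 arrays are given for the 3 largest rises and 3 largest falls of each comparison, and in each role the genes with the largest and smallest TNF change in labelled cKO cells are named; Mcm and partner subunits, second probes and the genes past a limit were named after their values were seen. The limit of 2 technical spreads and the comparison by level were also chosen after seeing the data. Lists of fibroblast, osteoblast, endothelial and erythroid markers were computed as well. Alternatives were quantile normalization, no scaling, the authors' table, normexp background correction, 2 other filters, the mean of all probes of a gene, spots in patches left out and a 1.5-fold limit. One gene that the naming rule picks from the list of further replication genes is not reported here.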

Additional observations from a re-analysis of the deposited data

Results flagged for a closer look

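For 6 replication genes the TNF difference pointed in opposite directions in the 2 genotypes, below 0 in control cells and above 0 in labelled cKO cells, each by more than the technical spread of 1 difference (0.138). Of all genes, 4.72% did so in this direction and 4.19% in the other, which no replication gene did. The difference between genotypes was not tested, since there was 1 array per condition. It was 0.82 for Orc1, 0.50 for Gins1, 0.49 for Ccne1, 0.44 for Prim1, 0.41 for Pole and 0.37 for Mcm6. With normexp the value of Orc1 was 0.44. The spots of Gins1 and Prim1 lay in a bright patch on the control array without TNF. Orc1 is dim, and its 2 differences, of -0.16 and 0.66, are to be read against a spread of 0.272. The second probe of Ccne1 gave a value of -0.05. The count of 6 depended on the processing. It was 5 after quantile normalization (5.79% of all genes), namely Gins1, Pole and Ccne1 of the 6, with Cdt1 and Cdc45. Without scaling it was 2 (Orc1 and Gins1, 2.26%). It was 4 in the authors' table (Orc1, Cdt1, Gins1 and Ccne1, 2.6%) and 4 with normexp (Orc1, Orc6, Gins1 and Prim1, 2.91%). With the mean of all probes (5.0%) and with spots in patches left out (4.31%) it was 4 each, all from the 6.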

How the results depend on the processing

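The direction of the 5 medians over the replication genes was the same under all 8 alternatives. They ranged from -0.09 to -0.05 for TNF in control cells, from 0.09 to 0.21 for TNF in labelled cKO cells, from 0.03 to 0.10 and from 0.25 to 0.34 between genotypes without and with TNF, and from 0.17 to 0.29 for the difference between the TNF changes. Of 535 values of single genes under alternatives, 516 stayed within 1 technical spread of the value reported, 17 did not, and 2 larger than it changed sign. Both were of Uhrf1 with the mean of all its probes, at -0.78 between genotypes with TNF and -0.88 for the difference between TNF changes. Of the 17, 4 were small values that took the other sign, among them Pola2 with normexp (-0.09 for TNF in control cells, 0.09 for the difference between TNF changes) and with quantile normalization (0.22 for TNF in labelled cKO cells). The count past 2-fold, 0 in each comparison, was 1 with the mean of all probes (TNF in control cells, Uhrf1) and 1 with no filter and no floor (genotypes without TNF, Ccne2). With a 1.5-fold limit the count was 1 with TNF in labelled cKO cells and 7 between genotypes with TNF. Of all genes, 1.49% and 3.07% were higher by as much. The count was 0 and 3 without scaling (0.94% and 2.2% of all genes) and in the authors' table (0.92% and 2.23%). It was 1 and 5 after quantile normalization (3.29% and 3.56%). With the limit of 2 technical spreads, chosen after seeing the data, it was 3 and 11 with TNF in the 2 genotypes and 4 and 29 between genotypes without and with TNF.

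Scaling mattered most for the counts past the technical spread. Genes higher with TNF in labelled cKO cells were 11, but 6 after quantile normalization, 4 without scaling and 3 in the authors' table (all genes 10.6%, then 15.1, 4.78 and 4.55%). Between genotypes with TNF they were 29, but 23, 18 and 18 (all genes 14.4%, then 15.6, 9.96 and 10.08%). The median of the 24903 genes measured with TNF in labelled cKO cells moved from 0.06 to -0.04 and -0.05 without scaling and in the authors' table. Of the 42 genes, 34 to 37 were highest in labelled cKO cells with TNF under the scaling alternatives, while the share of all genes went from 41.3% to 36.0% after quantile normalization, 24.6% without scaling and 22.0% in the authors' table.

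No paired analysis was possible because each condition had 1 array, and leaving out a replicate was not possible either. Signal over background limits Orc1, Cdc6, Cdc45 and Pola2, whose mean level over the arrays was under -2, and leaves Ccne2 unmeasured. Sex and genotype cannot be told apart.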
